A study of Mus musculus with 12 samples.

Results

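The genes described here are 41 DNA replication genes of the mouse, read by symbol in a table of 47643 genes for 12 libraries. They were chosen by name and role, with no threshold on their values but with earlier results of these data known, and cover 10 roles at the replication fork. All 41 were found, and all 41 passed the filter used for testing, a mean of at least 1 TPM (reads per gene length, brought to the same total in every library) over the 12 libraries, which 14479 genes passed. The libraries are RNA-seq of common lymphoid progenitors (CLPs), the bone marrow cells from which B and T lymphocytes arise, sorted as lineage-negative cells with low Sca1, low cKit and IL7Rα. There are 3 groups of 4 male mice aged 27 to 32 weeks, with 1 library per mouse. WT mice carry *Firre*, a long noncoding RNA gene on the X chromosome. ∆*Firre* mice carry a germline deletion of the *Firre* locus, made with a ubiquitous Cre that was then bred out, and the allele was backcrossed to C57BL/6J for 3 generations. *Firre* rescue mice carry that deletion together with a *Firre* transgene under a doxycycline-responsive promoter and a ubiquitously expressed transactivator (CAG-rtTA3), and were fed doxycycline. The deletion, both transgenes and the diet thus all separate *Firre* rescue from WT, while the 2 transgenes and the diet separate it from ∆*Firre*.

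A cell copies its genome once per division. The origin recognition complex, with CDC6 and CDT1, loads the ring of MCM proteins on DNA in G1, and CDC45, GINS and MCM10 turn that ring into a moving helicase in S phase. Polymerase alpha-primase lays primers, polymerase epsilon extends the leading strand and polymerase delta the lagging strand, both held on by the PCNA clamp that replication factor C loads. FEN1 and DNA ligase 1 join Okazaki fragments, RPA coats single-stranded DNA, ribonucleotide reductase and thymidylate synthase make deoxynucleotides, and CAF-1 places histones behind the fork. Many of these genes are transcribed at the G1/S transition under E2F factors, and CLPs are a dividing population, so their transcripts are part of the ordinary make-up of these cells.

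Libraries were identified by the mouse number in their labels, 6, 8, 10 and 11 for WT, 8, 9, 11 and 12 for ∆*Firre* and 1 to 4 for *Firre* rescue, and values are listed below in that order. *Firre* was at 25.2 to 31.6 TPM in WT, listed at 0 in all 4 ∆*Firre* libraries and at 59.9 to 174 TPM in *Firre* rescue, as labelled. Reads recovered from the spacing of the TPM values numbered 10687856 to 17709914 in WT, 13967654 to 17093496 in ∆*Firre* and 25043333 to 31724795 in *Firre* rescue libraries, and each replication gene rested on 160 to 21707 reads per library. The library numbers of *Firre* rescue form a range of their own, so that genotype and library range cannot be told apart for it. The CLP markers *Il7r* (353 to 525 TPM) and *Flt3* (506 to 709 TPM) were high in all 12 libraries. Of the 9 marker lists, 6 had sums in *Firre* rescue that overlapped neither other group, and the erythroid and neutrophil sums overlapped both. The lymphoid progenitor sum, at 7828 to 8464 TPM, lay above ∆*Firre* (6950 to 7314) and within the WT range (5800 to 8513). The 6 basophil and mast cell markers summed to 64.0 to 142 TPM in *Firre* rescue, against 2918 to 4291 in ∆*Firre* and 1052 to 9045 in WT, and of these *Prss34*, *Fcer1a*, *Ms4a2* and *Gata2* were listed at 0 in at least 2 *Firre* rescue libraries each. The 8 B lineage markers summed to 835 to 1340 TPM in *Firre* rescue, against 282 to 374 in ∆*Firre* and 215 to 420 in WT. Against each group 7 were called higher and *Ms4a1* lower. Of all genes tested, 8.58% were called higher and 19.3% lower than in ∆*Firre*, and 4.82% and 19.4% than in WT. The summed plasmacytoid dendritic cell markers were also higher in *Firre* rescue, at 1638 to 2175 TPM. This sum was 1023 to 1079 in ∆*Firre* and 1061 to 1279 in WT. Much of the difference lay in *Ly6d*, at means of 1258, 485 and 528 TPM in *Firre* rescue, ∆*Firre* and WT. *Bst2* and *Irf8* also had higher means in *Firre* rescue than in both other groups, and *Siglech*, *Tcf4* and *Ccr9* lower ones. Lower were the sums of the T and NK cell markers (238 to 295 TPM against 396 to 617 and 327 to 694) and the ILC2 markers (42.1 to 66.3 against 87.0 to 110.4 and 72.6 to 109.9). The plasma cell sum was also lower (306 to 528 against 1614 to 3412 and 872 to 1636). This followed *Jchain*, at a mean of 70.4 TPM against 2313 in ∆*Firre* and 923.5 in WT. *Mzb1* and *Sdc1* had higher means in *Firre* rescue than in both other groups, and *Xbp1*, *Prdm1* and *Irf4* lower ones. In sorted bulk RNA, fewer cells of a type and less RNA per cell cannot be told apart.

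Many promoters of these genes carry the letters by which E2F factors are known. The window from 250 bases before to 50 after the start was held for 34 of the 41 in RefSeq (GRCm38.p6), and not for *Prim2*, *Pole*, *Gins4*, *Mcm4*, *Gins1*, *Gins2* and *Rfc2*. A gene with several RefSeq starts had several windows and counted if any of them matched (32851 windows for 27025 genes). On either strand, 14 of the 34 genes (41.2%) held at least 1 of the 4 E2F spellings TTTGGCGC, TTTCCCGC, TTTCGCGC and TTTGCCGC, against 704 of all 27025 genes with a window (2.60%). The 14 were *Orc1*, *Cdc6*, *Cdt1*, *Mcm3*, *Mcm5*, *Mcm6*, *Mcm7*, *Gins3*, *Pola1*, *Pold1*, *Pold3*, *Pole2*, *Rfc3* and *Lig1*. The lines that follow give the 170 bases before a RefSeq start of *Mcm6*, the member of highest level, of *Mcm5*, and of *Orc1*, the member of lowest level, 5′ to 3′ on the gene's own strand, with the E2F letters in capitals. The *Orc1* stretch belongs to an internal start and lies wholly inside the gene (chr4:108575705-108616030). The end of the *Mcm5* stretch also lies inside its gene (chr8:75109468-75128439). They lie at chr1:128359706-128359875 (minus strand), chr8:75109339-75109508 (plus) and chr4:108579284-108579453 (plus). *Mcm6* holds 3 matches, of which 2 overlap, and *Mcm5* holds 2 that overlap.
*Mcm6*: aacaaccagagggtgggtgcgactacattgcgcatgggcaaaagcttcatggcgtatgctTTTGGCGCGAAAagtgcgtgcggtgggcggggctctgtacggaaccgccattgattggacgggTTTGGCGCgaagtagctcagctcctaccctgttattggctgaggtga
*Mcm5*: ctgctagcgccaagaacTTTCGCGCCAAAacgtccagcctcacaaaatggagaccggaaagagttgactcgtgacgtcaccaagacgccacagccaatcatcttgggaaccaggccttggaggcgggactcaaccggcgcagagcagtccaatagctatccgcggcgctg
*Orc1*: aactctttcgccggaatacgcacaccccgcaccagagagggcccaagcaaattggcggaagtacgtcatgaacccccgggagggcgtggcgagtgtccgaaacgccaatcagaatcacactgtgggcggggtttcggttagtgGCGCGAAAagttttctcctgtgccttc

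The letters CCAAT, read on both strands, stood in a window of 22 of the 34 genes (64.7%, against 41.1% of all), and the GC box letters GGGCGG in 26 (76.5%, against 38.2%). TTTGAA, the letters of the CHR element common in mitotic genes, stood in 5 (14.7%, against 20.2% of all and 13 of 18 mitotic genes). Of the 10 members called higher in *Firre* rescue than in ∆*Firre* below, 9 had a window. Of these 9, 7 held CCAAT, 4 TTTGAA, and 1, *Pold1*, E2F letters. *Pcna* (chr2:132253181-132253350, minus strand) and *Rrm2* (chr12:24708084-24708253, plus strand) are shown for that group, with CCAAT or its reverse complement in capitals, and *Pold1* as a stretch of 30 bases (chr7:44548766-44548795, minus strand) around its E2F letters, which begin at base 40 after the start. A match is a description of the letters, not of a bound site.
*Pcna*: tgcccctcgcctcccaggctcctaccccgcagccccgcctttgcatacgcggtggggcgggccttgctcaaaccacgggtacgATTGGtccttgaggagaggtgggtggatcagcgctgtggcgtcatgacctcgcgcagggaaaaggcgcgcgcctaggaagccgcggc
*Rrm2*: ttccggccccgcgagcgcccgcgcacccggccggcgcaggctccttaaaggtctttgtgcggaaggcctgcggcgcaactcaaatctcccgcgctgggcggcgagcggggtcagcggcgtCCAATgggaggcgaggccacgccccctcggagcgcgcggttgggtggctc
*Pold1*: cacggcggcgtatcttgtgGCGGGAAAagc

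The replication genes were among the more highly expressed genes of WT CLPs. The median member stood at 87.4 TPM, against 21.4 TPM for the median gene tested, and 39 of the 41 lay above that median. TPM is scaled per length, but the length used per gene is not given, so that the order of genes below is that of the deposited values. *Mcm6* was highest at 539 ± 78.9 TPM (SD, n = 4), followed by *Pcna* at 388 ± 19.1 and *Mcm3* at 312 ± 22.1. The lowest were *Mcm10* at 24.7 ± 2.103, *Gins2* at 21.2 ± 4.31 and *Orc1* at 15.4 ± 4.06 TPM (SD, n = 4 each). Of the 40 neighbouring pairs in this order, 3 had WT libraries that did not overlap, *Mcm6* over *Pcna*, *Pcna* over *Mcm3* and *Mcm5* over *Rrm2*, and the libraries of all other pairs overlapped. The coefficient of variation between the 4 WT mice ran from 3.87% to 26.4% over the members, with a median of 11.2%.

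**Figure D1:**
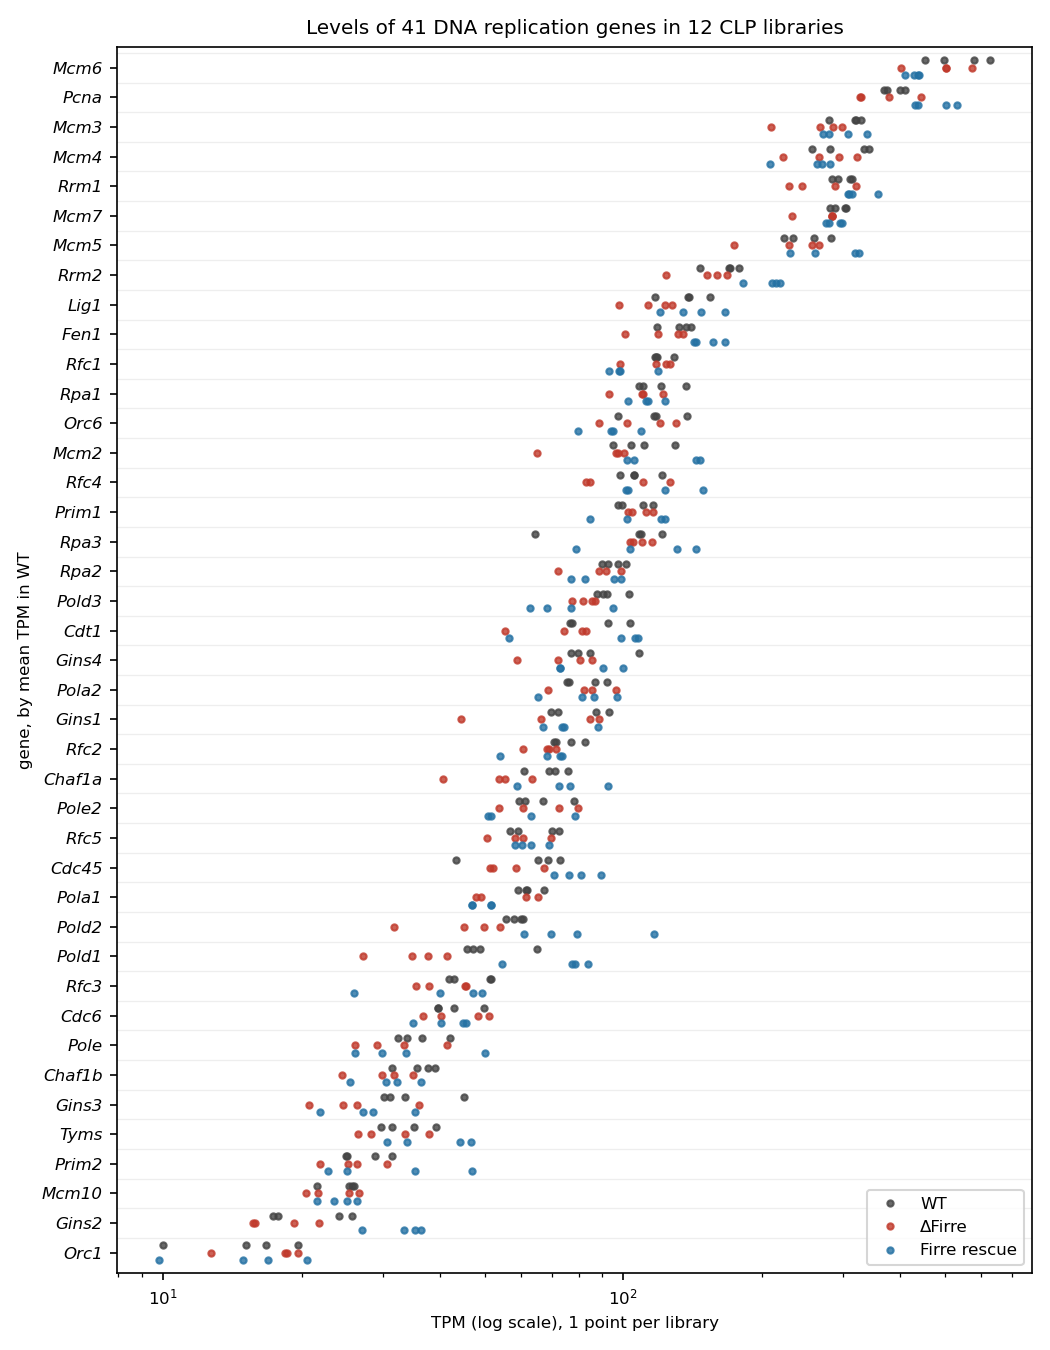
TPM (log axis) of each of the 41 replication genes, ordered by mean TPM in WT, with 1 point per library for WT, ∆*Firre* and *Firre* rescue. *Mcm6* is highest and *Orc1* lowest in WT, at 539 and 15.4 TPM, and for most genes the 3 groups overlap.

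Between ∆*Firre* and WT CLPs no replication gene was called. With limma and a Benjamini-Hochberg threshold of 0.1, 0 of the 41 passed, where 0.0207% of all genes tested did. At an unadjusted p under 0.05 there were 2, *Pold1* and *Chaf1a*, where 5.30% of all genes tested had such a p. Limma-voom on the recovered reads also called 0 and had 2 under 0.05, where 379 of 14475 genes in that fit did. The values leaned low. The fitted difference was below 0 for 36 of the 41 (87.8%, against 61.4% of all genes tested), with a median of −0.13 in log2(TPM + 1), against −0.06 over all genes. The median was −0.06 under median-ratio scaling, −0.08 with limma-voom, −0.09 under quantile normalization and −0.13 under a correction for exon GC content, where that over all genes was 0.0073, −0.0042, −0.0098 and −0.04. Standard errors of single members ran from 0.08 to 0.25 on this scale, and a p that misses the threshold does not show that a level was the same.

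The 3 members of lowest p in that comparison belong to 3 different steps. *Pold1* (ENSMUSG00000038644.14, chr7:44532744-44548815), the catalytic subunit of polymerase delta, was at 64.9, 48.8, 47.3, and 45.8 TPM in WT mice and at 34.7, 27.2, 41.4, and 37.7 TPM in ∆*Firre*. Each ∆*Firre* library lay below each WT library, at means of 51.7 ± 8.88 and 35.3 ± 6.05 TPM (SD, n = 4 each). The log2 difference was −0.54 (standard error 0.17, limma adjusted p = 0.889). *Chaf1a* (ENSMUSG00000002835.8, chr17:56040416-56068026), the large subunit of the CAF-1 histone chaperone, was at 68.9, 61.0, 76.0, and 70.98 TPM in WT mice and at 53.8, 40.6, 55.5, and 63.5 TPM in ∆*Firre*, so that ∆*Firre* mouse 12 overlapped WT mouse 8, and the difference was −0.38 (standard error 0.15, limma adjusted p = 0.929). *Mcm3* (ENSMUSG00000041859.10, chr1:20802966-20820312), a subunit of the helicase ring, had levels of 321, 319, 329, and 279.7 TPM in WT and 285, 209.8, 268, and 299 TPM in ∆*Firre*. Here ∆*Firre* mice 8 and 12 fell within the WT range and mice 9 and 11 below it, with a difference of −0.24 (standard error 0.11, limma adjusted p = 0.929).

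All 3 polymerase delta subunits among the members had ∆*Firre* libraries wholly below WT, and no other member did (3 of 41, where 4.49% of all genes tested are so). *Pold2* (ENSMUSG00000020471.11, chr11:5872180-5878256), the regulatory subunit that joins the others, was at 60.6, 59.99, 57.9, and 55.5 TPM in WT mice and at 54.0, 31.7, 45.1, and 49.7 TPM in ∆*Firre*. For *Pold3* (ENSMUSG00000030726.16, chr7:100082110-100121502), the subunit that carries a PCNA-binding tail, the values were 87.6, 90.5, 103, and 92.1 TPM in WT and 85.5, 77.3, 86.7, and 82.0 TPM in ∆*Firre*. The gaps were narrow, with the nearest libraries at 54.0 and 55.5 TPM for *Pold2* and at 86.7 and 87.6 TPM for *Pold3*. Neither difference passed the test, at −0.39 (limma adjusted p = 0.929) and −0.17 (adjusted p = 0.969). The separation depended on the scaling, since only *Pold1* remained apart under median-ratio scaling, quantile normalization and limma-voom, and only *Pold3* under a correction for exon GC content. Without WT mouse 8, WT mouse 11 or ∆*Firre* mouse 8 the count of such members was 5, 8 and 5. Leaving out a library can only keep or raise such a count, so that the rise says nothing about these genes. No share over all genes is given for it. The remaining, small subunit *Pold4*, no member of the list and named after its values were seen, had the same order, with 46.9 to 53.0 TPM in ∆*Firre* and 55.5 to 84.8 TPM in WT. The polymerase epsilon subunits *Pole* and *Pole2* overlapped between the groups, at means of 36.2 and 32.5 TPM and of 66.3 and 66.6 TPM.

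**Figure D2:**
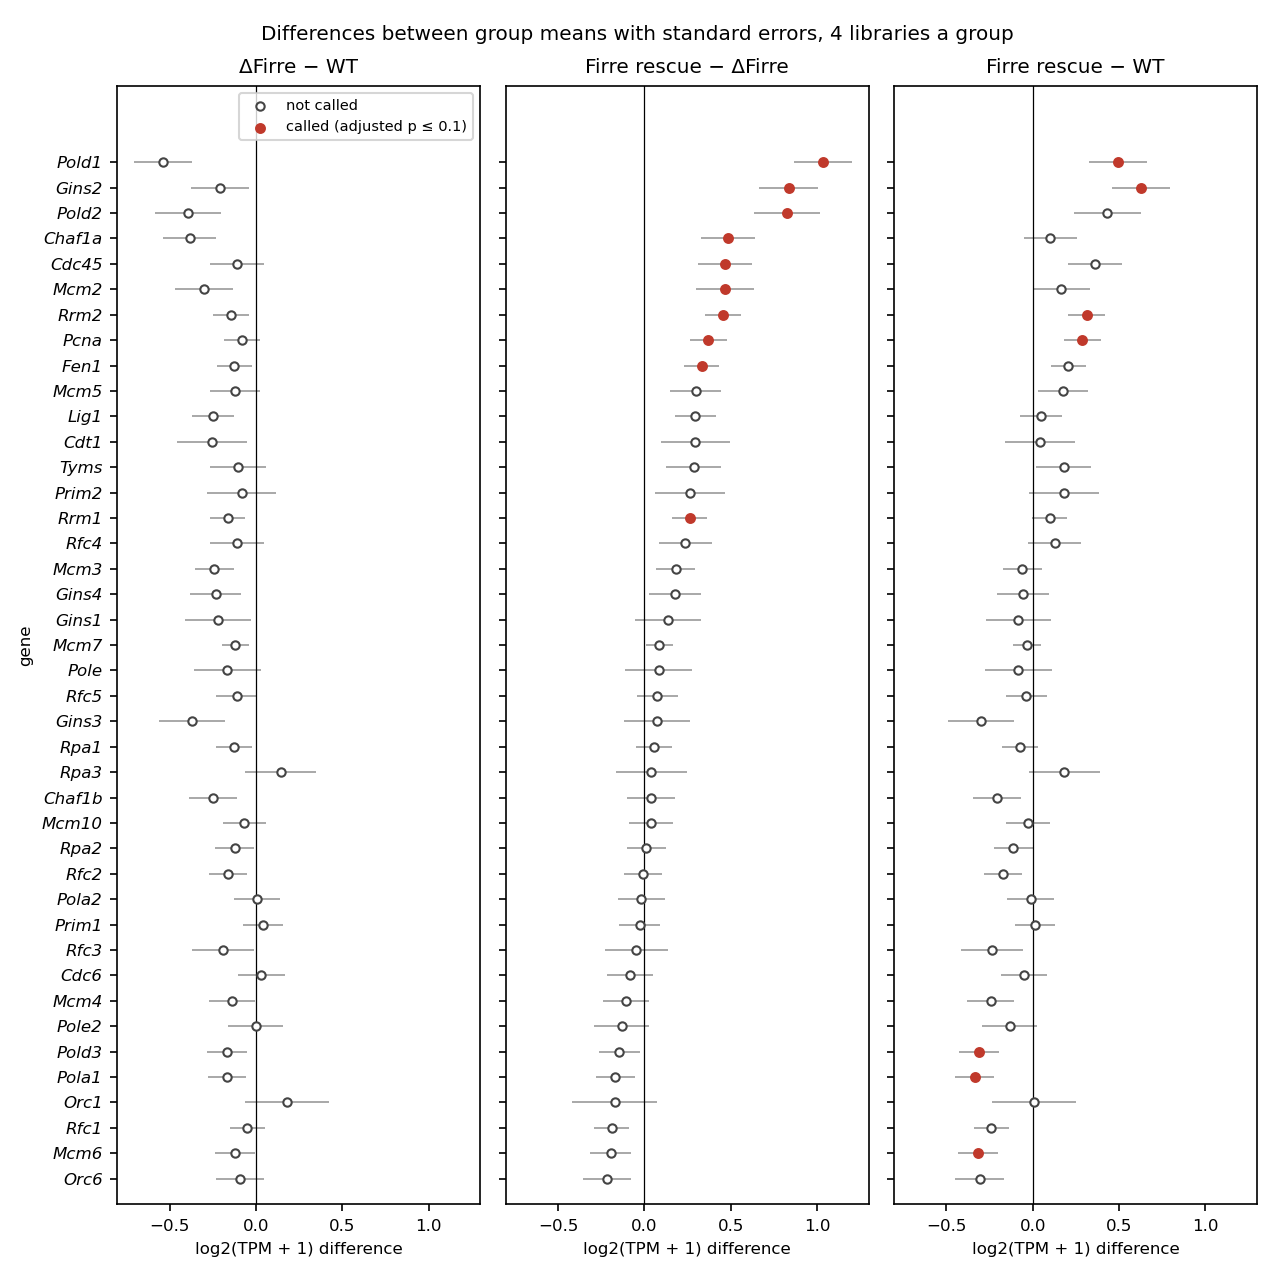
Difference in log2(TPM + 1) with its standard error for each of the 41 replication genes in the 3 comparisons. Genes are ordered by the difference between *Firre* rescue and ∆*Firre*, and called genes (limma adjusted p of 0.1 or less) are filled. No gene is called between ∆*Firre* and WT, 10 are higher in *Firre* rescue than in ∆*Firre*, and 4 are higher and 3 lower in *Firre* rescue than in WT.

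The lowest values in ∆*Firre* were those of 1 mouse. ∆*Firre* mouse 9 was the lowest of its group for 35 of the 41 genes, where it was so for 31.6% of all genes tested, and the lowest of all 12 libraries for 23 of them (8.61% of all genes tested). The summed TPM of the 41 genes was 3793 in this library, against 4399 to 5095 in the other 3 ∆*Firre* libraries, 4619 to 5206 in WT and 4666 to 5324 in *Firre* rescue. ∆*Firre* mouse 8 stood at the other end and was highest of its group for 28 of the 41, and it was 1 of 3 libraries, with WT mouse 6 and *Firre* rescue mouse 3, in which the neutrophil gene *S100a9* was at or near 0 TPM (up to 822 TPM in the others). The 44 other replication factors described below also summed lowest of the 12 libraries in mouse 9, at 3137 TPM, as did the 20 mitotic genes, at 1630 TPM. Of the marker lists, its 6 plasma cell markers summed highest of the 12 libraries, at 3412 TPM against 1614 to 3255 in the other ∆*Firre* libraries and 872 to 1636 in WT, and so did its ILC2 markers, at 110.4 TPM, little above the highest in WT (109.9). Its T and NK cell markers (617 TPM) and B lineage markers (374 TPM) were the highest of its group but within the WT range, and its lymphoid progenitor, neutrophil, basophil and mast cell, erythroid and plasmacytoid dendritic cell markers lay within the range of the other ∆*Firre* libraries. The plasma cell gene *Jchain* was at 1369 to 3110 TPM in ∆*Firre*, wholly above the 619 to 1296 TPM of WT, and was not called between them (1.29, limma adjusted p = 0.986). The depth of mouse 9, at 17093496 reads, was the highest of its group. The part of library quality or cell make-up in the low values of this library was not tested.

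Without mouse 9 the median difference between ∆*Firre* and WT was −0.06, with 32 of the 41 (78.0%) below 0 and 1 at an unadjusted p under 0.05. Over all 14479 genes tested it was −0.05, with 60.5% below 0 and 468 genes at such a p. The library numbers of WT and ∆*Firre* fall in 2 ranges that hold 2 libraries of each group. Within the range of WT mice 8 and 11 and ∆*Firre* mice 8 and 11 the median difference was −0.05, with 26 of the 41 (63.4%) below 0, against −0.06 and 58.6% over all genes. Within the range of WT mice 6 and 10 and ∆*Firre* mice 9 and 12 it was −0.23, with 40 of the 41 (97.6%) below 0, against −0.06 and 59.2% over all genes. The lean of the members beyond that of all genes was larger in the range that holds mouse 9, and in the other range their median was no lower than that of all genes. That other range holds ∆*Firre* mouse 8, highest of its group for 28 of the 41. With 2 libraries of each group in a range, single mice and library range cannot be told apart.

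**Figure D3:**
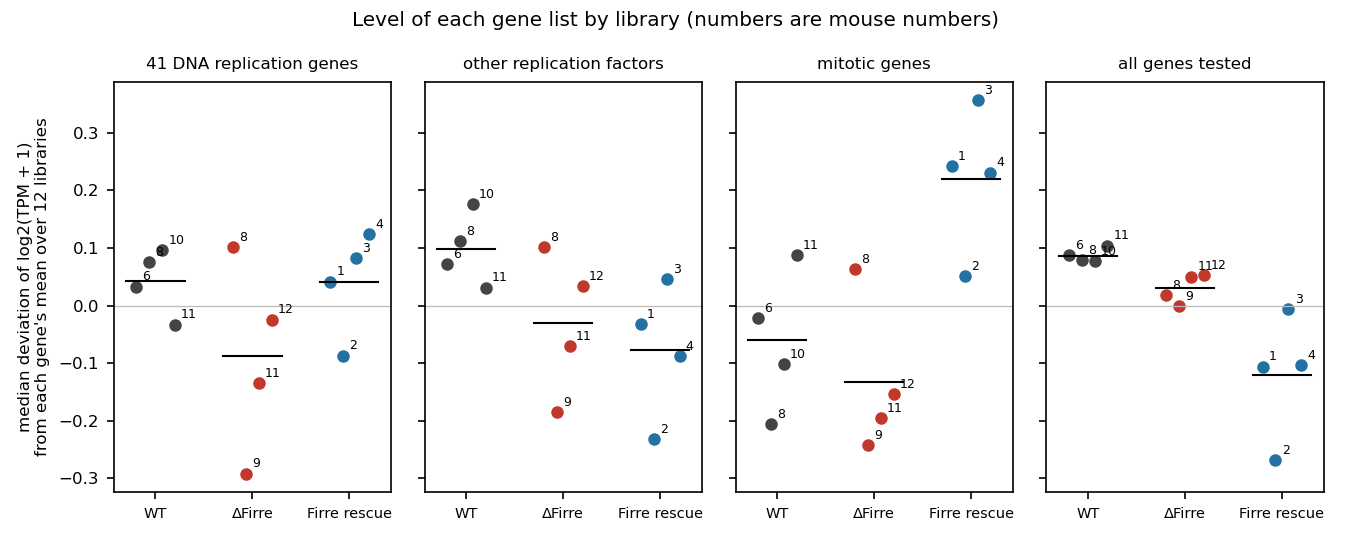
Level of the 41 replication genes, the other replication factors, the mitotic genes and all genes tested in each of the 12 libraries. The level is the median over genes of the deviation of log2(TPM + 1) from the gene's mean over all libraries. For the 41 replication genes ∆*Firre* mouse 9 is lowest, at a median deviation of −0.29.

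Compared with ∆*Firre*, 10 of the 41 were called higher and 0 lower, where 8.58% of all genes tested were called higher and 19.3% lower. By role these were 1 of the 6 MCM genes, 2 of the 6 genes of helicase activation, 2 of the 3 of polymerase delta, the clamp, the flap nuclease, 2 of the 3 of nucleotide supply and 1 of the 2 of CAF-1. The 10 were *Pold1*, *Gins2*, *Pold2*, *Chaf1a*, *Cdc45*, *Mcm2*, *Rrm2*, *Pcna*, *Fen1* and *Rrm1*, with differences from 0.26 to 1.04 in log2(TPM + 1), or 1.20 to 2.05 in the ratio of TPM + 1. The difference was above 0 for 28 of the 41 (68.3%, against 36.0% of all genes tested), and its median was 0.08, against −0.16 over all genes. For 7 genes every *Firre* rescue library lay above every ∆*Firre* library (6.31% of all genes tested do), and for none the reverse (15.6% of all). Compared with WT, 4 were called higher (4.82% of all) and 3 lower (19.4% of all), with a median of −0.03 against −0.21 over all genes. The 2 comparisons share the 4 *Firre* rescue libraries, so that a gene high in both is not seen independently in each, and the first shares the ∆*Firre* libraries with the comparison of ∆*Firre* with WT.

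These counts depend on how the libraries are brought to 1 scale, since in the deposited TPM 1242 of all genes were called higher and 2801 lower in *Firre* rescue than in ∆*Firre*. Scaling by the median ratio between libraries made this 1889 against 1875, and 14 replication genes higher and 0 lower. Quantile normalization gave 2001 against 1732 over all genes and 11 and 0 replication genes, limma-voom 1633 against 2668 and 13 and 0. A correction for exon GC content gave 1795 against 759 and 19 and 0. The median difference over all genes moved from −0.16 to −0.05 under median-ratio scaling and to 0.08 under the GC correction, that of the replication genes from 0.08 to 0.20 and 0.33, and the direction of the 10 called genes was the same in each of these fits. The calls gained were *Mcm3*, *Mcm5*, *Mcm7* and *Lig1* under median-ratio scaling, *Lig1* under quantile normalization, *Mcm3*, *Mcm5* and *Lig1* with limma-voom, and *Mcm3*, *Mcm5*, *Prim1*, *Prim2*, *Rfc4*, *Lig1*, *Rpa1*, *Rpa3* and *Tyms* under the GC correction. The median exon GC content of the 10 called genes was 53.6%, against 48.8% over the members and 49.5% over all genes tested. *Pcna*, *Pold1*, *Gins2*, *Pold2* and *Rrm2* were called in all 22 alternative fits. Leaving out ∆*Firre* mouse 9 lowered the calls over all genes as well, to 867 higher (5.99%) and 1953 lower (13.5%). Without it 5 of the 41 (12.2%) were called higher and 1, *Rfc1*, lower, at −0.27, and 20 of the 41 (48.8%) lay above 0, against 35.0% of all genes. Leaving out mouse 3 of *Firre* rescue gave 8 higher and 2 lower (*Rfc1* and *Pold3*), and without ∆*Firre* mouse 8 the median difference of the list was 0.20.

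**Figure D4:**
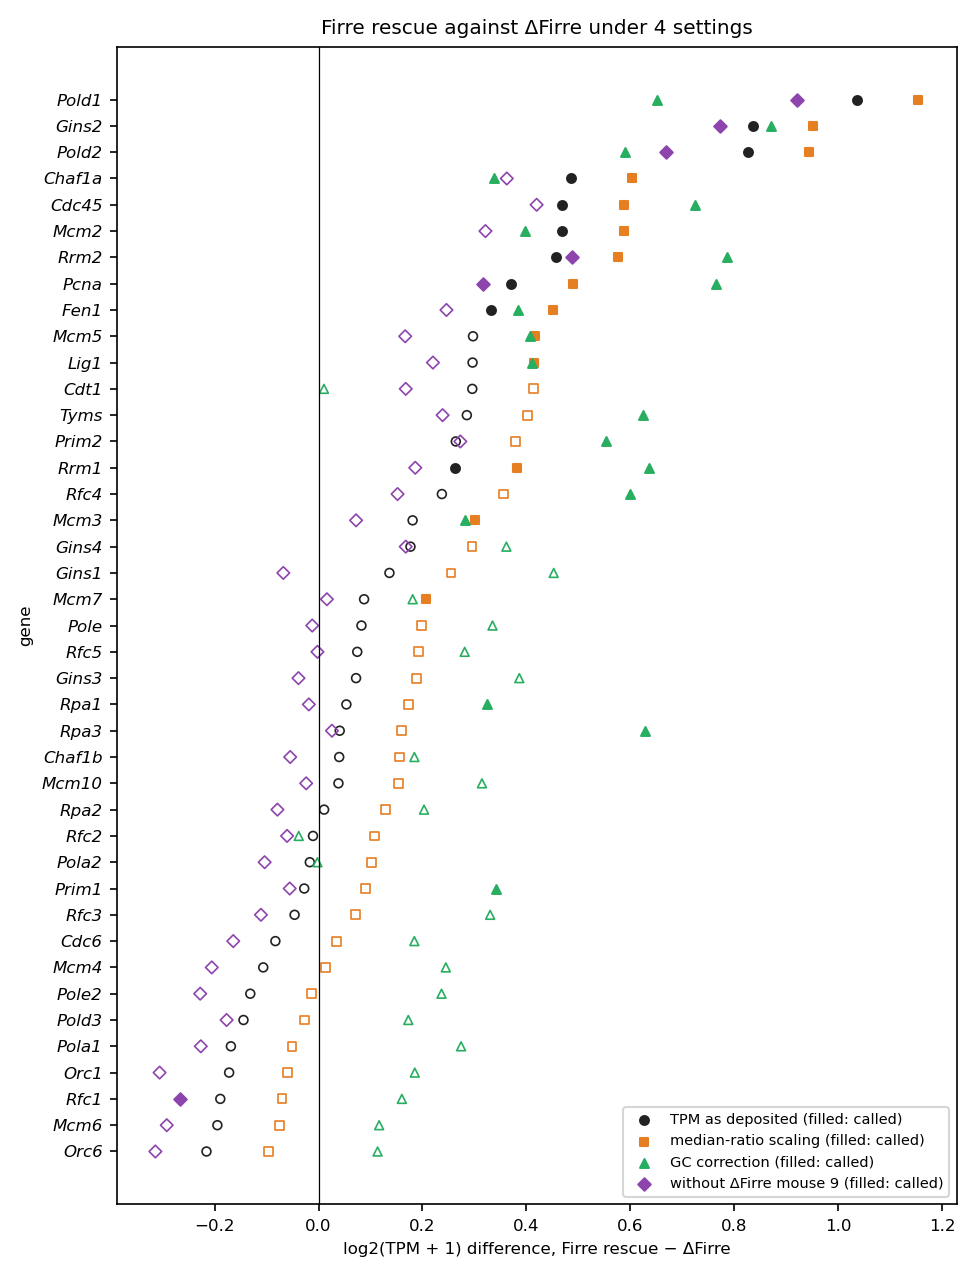
Difference in log2(TPM + 1) between *Firre* rescue and ∆*Firre* for the 41 replication genes, called genes filled. The settings are the deposited TPM, median-ratio scaling, the GC correction and the fit without ∆*Firre* mouse 9. From 10 called higher in the deposited TPM, the count is 14 with median-ratio scaling, 19 with the GC correction and 5 without ∆*Firre* mouse 9.

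The licensing factors, which load the helicase ring in G1, had no called member in either comparison with *Firre* rescue when all libraries were used. *Orc1* (ENSMUSG00000028587.18, chr4:108575705-108616030), the ATPase subunit of the origin recognition complex, was at 16.8, 15.1, 19.7, and 9.998 TPM in WT mice, 19.6, 12.7, 18.6, and 18.4 in ∆*Firre* mice and 17.0, 14.9, 20.5, and 9.79 in *Firre* rescue mice, and the 3 groups overlapped. *Orc6* had means of 117, 110.4 and 94.5 TPM in WT, ∆*Firre* and *Firre* rescue, *Cdc6* of 43.0, 44.1 and 41.4, and *Cdt1* of 87.6, 73.5 and 92.3. In the deposited TPM *Cdt1* alone of the 4 had a difference above 0 between *Firre* rescue and ∆*Firre*, at 0.30 (limma adjusted p = 0.328), and its *Firre* rescue libraries spread from 56.5 to 108 TPM. Under the GC correction all 4 were above 0 and none was called, with *Cdt1* smallest at 0.01 and *Orc1*, *Orc6* and *Cdc6* at 0.19, 0.11 and 0.18. Leaving out *Firre* rescue mouse 2 brought a call of *Cdt1* over ∆*Firre*, at 0.51, and leaving out WT mouse 6 a call of *Orc6* below WT, at −0.39.

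The 6 subunits of the MCM ring, which assemble in equal number in the protein complex, had 1 call in each comparison, *Mcm2* higher than in ∆*Firre* and *Mcm6* lower than in WT. *Mcm2* (ENSMUSG00000002870.8, chr6:88883474-88898780) was at 104, 129.9, 111, and 94.9 TPM in WT mice, 100.4, 64.9, 96.4, and 97.5 in ∆*Firre* mice and 102, 106, 147, and 144 in *Firre* rescue mice. Each *Firre* rescue library lay above each ∆*Firre* library, while *Firre* rescue and WT overlapped, and the gene was called higher than in ∆*Firre* (0.47, standard error 0.17, limma adjusted p = 0.0679), a call lost in 7 of the 22 alternatives. *Mcm6* (ENSMUSG00000026355.11, chr1:128331575-128359705) was at 498, 628, 577, and 452 TPM in WT mice, 572, 401, 504, and 502 in ∆*Firre* mice and 438, 409, 439.7, and 429 in *Firre* rescue mice. The 4 *Firre* rescue libraries were close to each other and all below WT, so that it was called lower than in WT (−0.32, standard error 0.12, limma adjusted p = 0.0849). That call was lost in 13 of the 22 alternatives, and the difference shrank to −0.13 with median-ratio scaling and −0.03 with the GC correction. Against ∆*Firre* its difference of −0.19 did not pass (adjusted p = 0.269) and turned to 0.12 with the GC correction.

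The other 4 subunits of the ring were called in neither comparison in the deposited TPM, and *Mcm3*, *Mcm5* and *Mcm7* passed against ∆*Firre* under other scalings. *Mcm5* (ENSMUSG00000005410.5, chr8:75109468-75128439) was at 234, 283, 260.1, and 224 TPM in WT mice, 258, 174, 229.5, and 266 in ∆*Firre* mice and 262, 231, 325, and 319 in *Firre* rescue mice, a difference of 0.30 from ∆*Firre* (limma adjusted p = 0.174) that passed under median-ratio scaling (0.42, adjusted p = 0.0378), the GC correction (0.41, adjusted p = 0.0567) and limma-voom (0.37, adjusted p = 0.0375). *Mcm3* was at 280.1, 272, 308, and 339 TPM in *Firre* rescue, 0.18 above ∆*Firre* (adjusted p = 0.284), and 3 of these libraries lay within the WT range or below it. That difference passed under the same 3 settings, at 0.26 to 0.30 (adjusted p = 0.0702 to 0.0935). *Mcm4* (ENSMUSG00000022673.4, chr16:15623897-15637400) was at 282, 342, 334, and 257 TPM in WT mice, 322, 223, 267, and 295 in ∆*Firre* mice and 263, 209, 282, and 271 in *Firre* rescue mice, with the lowest library in *Firre* rescue. Its difference from ∆*Firre* was −0.11 (adjusted p = 0.617) and turned to 0.01 under median-ratio scaling. *Mcm7* (ENSMUSG00000029730.16, chr5:138164583-138172111) was the steadiest of the ring, at 288, 305, 303, and 282 TPM in WT mice, 284, 233, 284, and 284 in ∆*Firre* mice and 280.0, 275, 296, and 299 in *Firre* rescue mice, where mouse 9 of ∆*Firre*, at 233 TPM, alone lay below all WT and *Firre* rescue libraries. Its difference from ∆*Firre* was 0.09, and 0.21 under median-ratio scaling, which passed (adjusted p = 0.0829).

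Because the scaling of a library cancels within it, each subunit was also taken as a share of its complex's summed TPM. *Mcm6* held the largest share of the ring in all 12 libraries and *Mcm2* the smallest. The *Mcm6* share was 29.7% ± 1.31 in WT mice, 30.4% ± 1.12 in ∆*Firre* mice and 25.6% ± 1.73 in *Firre* rescue mice (SD, n = 4 each), and every *Firre* rescue library (23.8% to 27.2%) lay below every WT and ∆*Firre* library (28.4% to 31.4%). The *Mcm5* share was the reverse, at 13.8% ± 0.298 in WT mice, 14.2% ± 0.800 in ∆*Firre* mice and 16.8% ± 1.29 in *Firre* rescue mice, with every *Firre* rescue library (15.4% to 18.1%) above the others (13.3% to 15.3%). *Mcm2* held 6.07% in WT mice, 5.48% in ∆*Firre* mice and 7.36% in *Firre* rescue mice, where *Firre* rescue was apart from ∆*Firre* (4.97% to 5.84% against 6.27% to 8.16%) and overlapped WT. For *Mcm3*, *Mcm4* and *Mcm7* the shares overlapped between all groups. A share within a library shows unequal levels, not which subunit changed. No test was run on shares, and the part of the exon GC content of the subunits in them was not tested.

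**Figure D5:**
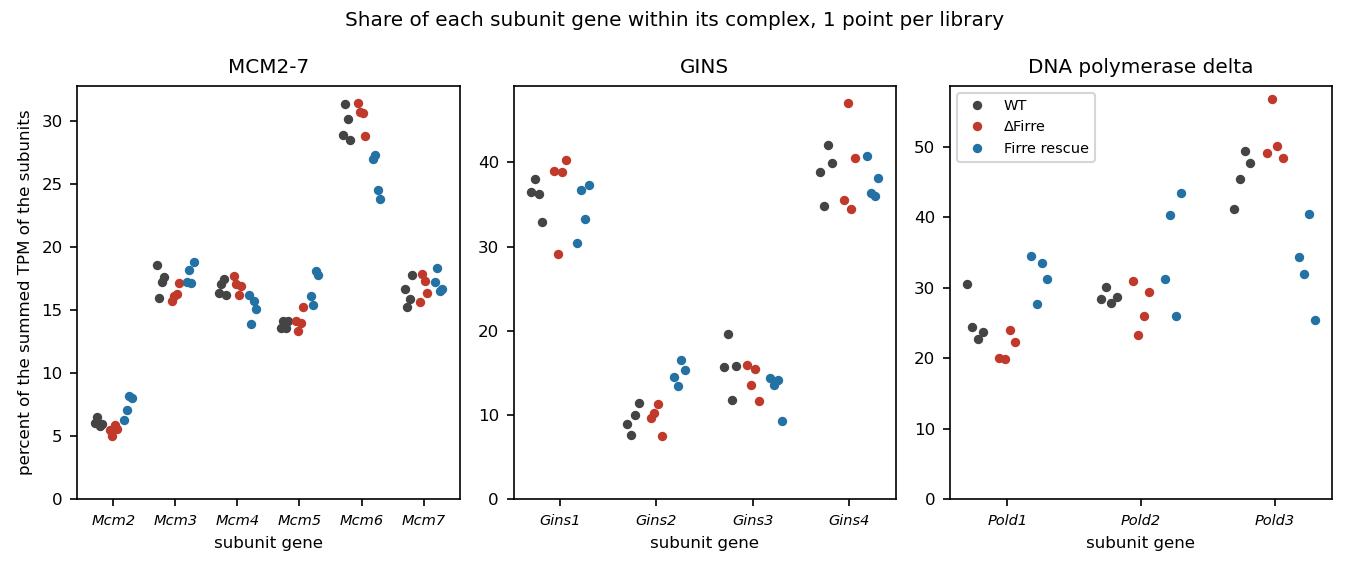
Share (percent) of each subunit of the MCM ring, GINS and polymerase delta in the summed TPM of its complex, 1 point per library, for WT, ∆*Firre* and *Firre* rescue. *Mcm6* is lower and *Mcm5* higher in every *Firre* rescue library than in every other library, *Gins2* rises to 15.0% of GINS and *Pold3* stands at 33.0% of polymerase delta in *Firre* rescue, against 51.1% in ∆*Firre*.

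Among the factors that turn the ring into a working helicase, *Gins2* and *Cdc45* were called higher in *Firre* rescue than in ∆*Firre*. *Gins2* (ENSMUSG00000031821.11, chr8:120581266-120589075), the smallest in mean level of the 4 GINS subunits in WT and ∆*Firre* but not in *Firre* rescue, where *Gins3* was lower, was at 17.8, 17.4, 25.8, and 24.1 TPM in WT mice, 21.8, 15.7, 19.2, and 15.9 in ∆*Firre* mice and 35.4, 27.1, 33.5, and 36.4 in *Firre* rescue mice. Every *Firre* rescue library lay above every library of both other groups, by 0.84 over ∆*Firre* (standard error 0.17, limma adjusted p = 0.00610) and 0.63 over WT (standard error 0.17, adjusted p = 0.0254). It was the only replication gene called in all 22 alternatives of both comparisons with *Firre* rescue. *Gins1*, *Gins3* and *Gins4* differed from ∆*Firre* by 0.14, 0.07 and 0.18 and from WT by −0.08, −0.30 and −0.06 in the deposited TPM, none of them called. Under the GC correction they were 0.45, 0.39 and 0.36 over ∆*Firre* and differed from WT by 0.21, −0.0086 and 0.15, again not called, and no test compared the subunits with each other. The share of *Gins2* in the complex was 9.47% ± 1.61 in WT mice, 9.66% ± 1.57 in ∆*Firre* mice and 15.0% ± 1.32 in *Firre* rescue mice (SD, n = 4 each), with *Firre* rescue apart from both.

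*Cdc45* (ENSMUSG00000000028.14, chr16:18780447-18811972), the helicase cofactor, was at 73.0, 43.3, 65.4, and 68.7 TPM in WT mice, 67.3, 51.3, 52.1, and 58.4 in ∆*Firre* mice and 81.2, 89.7, 70.8, and 76.3 in *Firre* rescue mice. *Firre* rescue was apart from ∆*Firre* (0.47, standard error 0.16, limma adjusted p = 0.0536) but reached into the WT range through mouse 3, and the difference from WT of 0.36 did not pass (adjusted p = 0.135) in the deposited TPM. Under median-ratio scaling, quantile normalization, the GC correction and limma-voom it did, at 0.46 to 0.61 (adjusted p = 0.0185 to 0.0972). The call against ∆*Firre* was lost in 4 of the 22 alternatives. *Mcm10* (ENSMUSG00000026669.14, chr2:4990724-5012791), which helps the helicase start, was at 26.1, 25.3, 25.8, and 21.6 TPM in WT mice, 26.7, 20.5, 25.4, and 21.8 in ∆*Firre* mice and 26.4, 21.7, 25.1, and 23.5 in *Firre* rescue mice, and the groups overlapped in the deposited TPM. Under the GC correction its *Firre* rescue libraries lay wholly above ∆*Firre* and WT, at differences of 0.31 and 0.24 that did not pass.

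Polymerase alpha-primase, which starts each strand, had no gene called against ∆*Firre* and 1 called lower than WT. *Pola1* (ENSMUSG00000006678.6, chrX:93304766-93632387), its catalytic subunit, was at 61.8, 61.6, 67.1, and 59.1 TPM in WT mice, 65.3, 49.0, 47.9, and 61.6 in ∆*Firre* mice and 47.0, 46.9, 51.6, and 51.6 in *Firre* rescue mice. The *Firre* rescue libraries all lay below WT (−0.34, standard error 0.11, limma adjusted p = 0.0586), while ∆*Firre* spanned from the WT levels of mice 8 and 12 to the *Firre* rescue levels of mice 9 and 11. The call was lost in 8 of the 22 alternatives, and the difference was −0.15 under median-ratio scaling and 0.07 under the GC correction. *Pola1* lies on the X chromosome, as *Firre* does. The accessory subunit *Pola2* and the primase subunits *Prim1* and *Prim2* differed from ∆*Firre* by −0.02, −0.03 and 0.26 and were not called, though under the GC correction *Prim1* and *Prim2* were, at 0.34 and 0.55 (adjusted p = 0.0540 and 0.0878), and *Prim1* also against WT (0.35). *Prim1* held the largest share of the complex and *Prim2* the smallest in all 12 libraries.

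Polymerase delta held the widest difference of the list in the deposited TPM, though not under the GC correction, where *Pold1* was 0.65 above ∆*Firre* and *Gins2*, *Rrm2*, *Pcna* and *Cdc45* were 0.87, 0.79, 0.76 and 0.72 above it. *Pold1* was at 77.2, 54.4, 78.4, and 83.8 TPM in *Firre* rescue, a mean of 73.5 ± 13.0 (SD, n = 4) against 35.3 ± 6.05 in ∆*Firre* and 51.7 ± 8.88 in WT. All 4 *Firre* rescue libraries lay above all 4 ∆*Firre* libraries, by 1.04 (standard error 0.17, limma adjusted p = 0.00176), and 3 of the 4, all but mouse 2, above all WT libraries (0.50, standard error 0.17, adjusted p = 0.0624). The call against ∆*Firre* held in all 22 alternatives, with a range of 0.65 to 1.17, and that against WT was lost in 9. *Pold2* was at 69.8, 79.3, 61.0, and 117 TPM in *Firre* rescue, above ∆*Firre* by 0.83 (standard error 0.19, adjusted p = 0.0123). It was above every WT library too, narrowly in mouse 3 (61.0 against 60.6 TPM) and with a wide spread, and this difference of 0.43 did not pass (adjusted p = 0.145), but did under median-ratio scaling (0.62, adjusted p = 0.0693) and quantile normalization (0.56, adjusted p = 0.0920).

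*Pold3* was at 77.0, 62.8, 94.8, and 68.2 TPM in *Firre* rescue. It was called lower than in WT (−0.31, standard error 0.12, limma adjusted p = 0.0886) although mouse 3 of *Firre* rescue lay within the WT range, and the call was lost in 16 of the 22 alternatives. The difference was −0.12 under median-ratio scaling and −0.02 under the GC correction. From ∆*Firre* it differed by −0.14 (adjusted p = 0.415), which turned to 0.17 under the GC correction. As a share of the 3 subunits it stood at 45.9% ± 3.58 in WT mice, 51.1% ± 3.86 in ∆*Firre* mice and 33.0% ± 6.24 in *Firre* rescue mice (SD, n = 4 each), with every *Firre* rescue library (25.4% to 40.5%) below every other (41.1% to 56.8%). The *Pold1* share was 25.3% ± 3.49, 21.5% ± 1.94 and 31.7% ± 3.01, and *Firre* rescue was apart from ∆*Firre*. *Pold4*, again outside the list, was higher in *Firre* rescue than in ∆*Firre* by 0.57 (limma adjusted p = 0.0603). For polymerase epsilon, the catalytic *Pole* and its partner *Pole2* differed between *Firre* rescue and ∆*Firre* by 0.08 and −0.13 and were not called.

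The sliding clamp was called and, in the deposited TPM, its loader was not. *Pcna* (ENSMUSG00000027342.14, chr2:132249286-132253180), the ring that tethers the polymerases, was at 375, 409, 399.5, and 369 TPM in WT mice, 443, 326, 329, and 378 in ∆*Firre* mice and 437, 503, 431, and 532 in *Firre* rescue mice. *Firre* rescue lay above WT in every library (0.29, standard error 0.11, limma adjusted p = 0.0808). Against ∆*Firre* the difference was 0.37 (standard error 0.11, adjusted p = 0.0289), although ∆*Firre* mouse 8 lay above *Firre* rescue mice 1 and 3. The call against ∆*Firre* held in all 22 alternatives and that against WT was lost in 8. The 5 subunits of replication factor C had differences from ∆*Firre* between −0.19 (*Rfc1*) and 0.24 (*Rfc4*) and from WT between −0.24 (*Rfc1*) and 0.13 (*Rfc4*), none called. Under the GC correction *Rfc4* was called against both, at 0.60 over ∆*Firre* (adjusted p = 0.0198) and 0.46 over WT (adjusted p = 0.0726), and *Rfc1* turned to 0.16 and 0.08. *Rfc3* held the smallest share of the loader in all 12 libraries.

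Of the enzymes that finish Okazaki fragments, *Fen1* (ENSMUSG00000024742.15, chr19:10199132-10204393), the flap nuclease, was at 140.4, 133, 137, and 119 TPM in WT mice, 135, 101, 119, and 131 in ∆*Firre* mice and 157, 144, 143, and 166 in *Firre* rescue mice. Every *Firre* rescue library was above every library of the other groups, with a difference of 0.33 from ∆*Firre* (standard error 0.10, limma adjusted p = 0.0393), lost in 2 of the 22 alternatives, and of 0.21 from WT, which did not pass (adjusted p = 0.189). The latter passed under median-ratio scaling, quantile normalization, the GC correction and limma-voom, at 0.31 to 0.39 (adjusted p = 0.0330 to 0.0757). *Lig1*, the ligase that seals them, had means of 137 ± 15.3, 115 ± 13.2 and 142 ± 19.5 TPM in WT, ∆*Firre* and *Firre* rescue (SD, n = 4 each) and missed the threshold against ∆*Firre* (0.30, adjusted p = 0.105) in the deposited TPM, while under the same 4 settings it passed, at 0.35 to 0.42 (adjusted p = 0.0214 to 0.0455). The single-strand binding subunits *Rpa1*, *Rpa2* and *Rpa3* differed little from ∆*Firre* in the deposited TPM, at 0.05, 0.01 and 0.04, and from WT, at −0.07, −0.11 and 0.18, with standard errors of 0.10, 0.11 and 0.20. The GC correction moved *Rpa3* to 0.63 over ∆*Firre* (adjusted p = 0.0190) and 0.71 over WT (adjusted p = 0.0124), and *Rpa1* to 0.32 over ∆*Firre* (adjusted p = 0.0750).

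Both subunits of ribonucleotide reductase, which makes deoxynucleotides from ribonucleotides, were called higher in *Firre* rescue than in ∆*Firre*. *Rrm2* (ENSMUSG00000020649.11, chr12:24708254-24714146), the small subunit whose level follows S phase, was at 169, 171, 179, and 147 TPM in WT mice, 168, 159.9, 124, and 152 in ∆*Firre* mice and 182, 211, 215, and 219.5 in *Firre* rescue mice. It was above every library of both groups, by 0.46 over ∆*Firre* (standard error 0.11, limma adjusted p = 0.0120) and 0.31 over WT (standard error 0.11, adjusted p = 0.0624). The call against WT was lost in 6 of the 22 alternatives, among them those without WT mouse 11, *Firre* rescue mouse 2 or *Firre* rescue mouse 4. *Rrm1* (ENSMUSG00000030978.9, chr7:102441695-102469771), the large subunit, was at 314, 312, 285, and 293 TPM in WT mice, 320.0, 229, 244, and 288 in ∆*Firre* mice and 314, 310.1, 358, and 307 in *Firre* rescue mice. Here ∆*Firre* mouse 8 lay above 3 of the 4 *Firre* rescue libraries, and the call (0.26, standard error 0.10, adjusted p = 0.0915) was the weakest of the 10 and lost in 11 of the 22 alternatives. From WT it differed by 0.10 (adjusted p = 0.547), which passed under median-ratio scaling (0.29) and the GC correction (0.44). *Rrm1* exceeded *Rrm2* in all 12 libraries. *Tyms*, thymidylate synthase, differed by 0.29 from ∆*Firre* and 0.18 from WT and was not called, while under the GC correction it was, at 0.62 (adjusted p = 0.0238) and 0.49 (adjusted p = 0.0760).

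In CAF-1, which deposits histones on new DNA, *Chaf1a* was at 72.7, 58.7, 92.6, and 76.5 TPM in *Firre* rescue. It was called higher than in ∆*Firre* (0.48, standard error 0.15, limma adjusted p = 0.0446), with *Firre* rescue mouse 2 inside the ∆*Firre* range, and close to WT (0.10, adjusted p = 0.686). Without ∆*Firre* mouse 9 this call was lost, at 0.36. *Chaf1b* differed from ∆*Firre* by 0.04 and from WT by −0.21, neither called, and was below *Chaf1a* in all 12 libraries.

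Set out by comparison, the 7 genes called between *Firre* rescue and WT were *Gins2*, *Pold1*, *Rrm2* and *Pcna*, higher, and *Pola1*, *Mcm6* and *Pold3*, lower. The 4 higher genes were also among the 10 called against ∆*Firre*, and none of the 3 lower genes was called there. Without overlap between the libraries, 5 lay above WT (*Gins2*, *Pold2*, *Pcna*, *Fen1* and *Rrm2*, where 3.55% of all genes tested do) and 2 below (*Mcm6* and *Pola1*, where 14.5% do). The lower calls rested on the scaling. Under median-ratio scaling 9 were called higher and 0 lower (8.90% and 8.67% of all genes in that fit), under the GC correction 11 and 0 (10.2% and 5.04%), under limma-voom 6 and 0 (6.52% and 13.3%), and under quantile normalization 7 and 1 (8.34% and 8.36%). Single libraries also decided counts. The higher calls fell to 2, 1, 2 and 1 without WT mouse 10, WT mouse 11, *Firre* rescue mouse 2 and *Firre* rescue mouse 4. The lower calls fell to 1 without WT mouse 8 or *Firre* rescue mouse 4. They fell to 0 without WT mouse 10, *Firre* rescue mouse 1 or *Firre* rescue mouse 2. The libraries of 4 members lay below WT without *Firre* rescue mouse 1 or *Firre* rescue mouse 3, a count that can only stay or rise when a library is left out.

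Genes of neighbouring lists were read the same way. Of 44 other replication factors, 9 were called higher (20.5%, against 8.58% of all genes tested) and 8 lower (18.2%, against 19.3%) in *Firre* rescue than in ∆*Firre*, and 1 higher (2.27%, against 4.82%) and 10 lower (22.7%, against 19.4%) than in WT. *Chtf18*, of an alternative clamp loader, was at 14.1 ± 1.29 TPM in WT mice, 8.33 ± 1.33 in ∆*Firre* mice and 16.6 ± 4.46 in *Firre* rescue mice (SD, n = 4 each), 0.89 above ∆*Firre* (limma adjusted p = 0.00934), and *Rnaseh2c*, of the enzyme that removes ribonucleotides from DNA, rose by 0.83 (adjusted p = 0.00167). *Samhd1*, which degrades deoxynucleotides, fell by 0.69 against ∆*Firre* (adjusted p = 0.00549), from 57.5 ± 5.72 to 35.6 ± 7.35 TPM, and *Cdc7*, the kinase that fires origins, fell by 0.57 (adjusted p = 0.0121). Against WT, *Dut*, which removes dUTP, was 0.39 higher (adjusted p = 0.0445), *Rrm2b*, the reductase subunit used outside S phase, 0.83 lower (log2 difference −0.83, adjusted p = 0.00837) and *Samhd1* −0.82 (adjusted p = 0.00265). The counts depended on the scaling. Against ∆*Firre* they were 13 higher and 4 lower under median-ratio scaling (13.0% and 12.9% of all genes in that fit), 11 and 5 under quantile normalization (2001 and 1732 of all genes), 11 and 1 under the GC correction (13.7% and 5.80%) and 11 and 8 with limma-voom (11.3% and 18.4%). Against WT they were, in the same order, 7 and 3, 3 and 6, 7 and 1, and 3 and 9.

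Of 23 genes of E2F and S-phase control, 1 was called higher (4.35%, against 8.58% of all genes tested) and 4 lower (17.4%, against 19.3%) in *Firre* rescue than in ∆*Firre*. *E2f2*, an activating E2F factor, was at 26.0 ± 4.19 TPM in WT mice, 22.8 ± 1.85 in ∆*Firre* mice and 47.7 ± 12.9 in *Firre* rescue mice (SD, n = 4 each), 0.999 above ∆*Firre* (limma adjusted p = 0.00271) and 0.83 above WT (adjusted p = 0.00834). *Rbl2*, the pocket protein p130 of resting cells, was 78.0 ± 11.97, 81.6 ± 2.54 and 46.6 ± 3.47 TPM and differed from ∆*Firre* by −0.80 (adjusted p = 0.000693), and *Cdkn1b*, the inhibitor p27, by −0.56 (adjusted p = 0.0233). Against WT 1 of the list was called higher (4.35%, against 4.82% of all genes tested) and 3 lower (13.0%, against 19.4%). In the same order of settings as above, the counts against ∆*Firre* were 3 and 3, 2 and 3, 6 and 1, and 3 and 4. Of 20 mitotic genes, 11 were called higher than in ∆*Firre* (55.0%, against 8.58% of all genes tested) and 10 higher than in WT (10 of 20, against 4.82% of all), with none lower in either (against 19.3% and 19.4%), and 11 to 18 higher than in ∆*Firre* under the other scalings. *Plk1*, a mitotic kinase, was at 43.2 ± 8.38 TPM in WT mice, 40.6 ± 4.76 in ∆*Firre* mice and 79.1 ± 14.7 in *Firre* rescue mice, 0.93 above ∆*Firre* (adjusted p = 0.00307), and *Cdc20*, which activates the anaphase-promoting complex, was 0.66 above it (adjusted p = 0.0144). Between ∆*Firre* and WT none of these 3 lists had a called gene in limma or limma-voom. At an unadjusted p under 0.05 there were 6, 0 and 0 genes in limma, where 5.30% of all genes tested had such a p. The 6 other replication factors fell to 2 without ∆*Firre* mouse 9 and to 3 with limma-voom. The count over all genes fell as well, from 767 to 468 and 379. They fell to 4 each under median-ratio scaling, quantile normalization and the GC correction, where all genes had 691, 783 and 407 (the last of 13086 genes).

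Marker genes were read in the comparison of *Firre* rescue with ∆*Firre*, where 8.58% of all genes tested were called higher and 19.3% lower. Beside the higher replication and mitotic genes, *Firre* rescue had 7 of 8 B lineage markers higher than ∆*Firre*, among them *Vpreb1* at 207 ± 48.2 against 35.4 ± 5.50 TPM (SD, n = 4 each) and *Igll1* at 154 ± 51.0 against 27.4 ± 8.72 TPM, both parts of the pre-B cell receptor. All 6 basophil and mast cell markers, 3 of 6 T and NK cell markers and all 4 ILC2 markers tested were lower. The 6 plasma cell markers divided, with 2 higher and 3 lower. *Jchain* was at 70.4 ± 86.1 against 2313 ± 847 TPM and *Prdm1* at 0.901 ± 0.314 against 4.78 ± 1.82 TPM, while *Mzb1* was at 151 ± 56.9 against 56.1 ± 7.26 TPM (1.34, limma adjusted p = 0.00610) and *Sdc1* at 85.5 ± 15.7 against 52.6 ± 6.64 TPM (0.68, adjusted p = 0.0271). Of the 8 lymphoid progenitor markers, *Rag1* was higher (12.5%) and 3, *Ptprc* and *Kit* among them, were lower (37.5%). Of the other lists, 2 neutrophil markers were lower, no erythroid marker was called, and 3 plasmacytoid dendritic cell markers were higher and 2 lower. The part of these shifts in cell make-up, of the doxycycline diet, of the transgenes and of the separate library range in the levels of the replication genes was not tested.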

How the data were processed

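RNA from sorted CLPs was sequenced by the authors from polyadenylated transcripts, 1 library per mouse. The reads were trimmed with cutadapt, mapped to mm10 with TopHat2 2.1.1, counted per gene of Gencode release M9 with featureCounts and deposited as TPM, which the authors made from reads per gene length. Neither the strand setting nor the length used per gene is given in the sources used here. Genotypes came from the sample labels, and no column was without a sample (0 left out).

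Values were set to log2(TPM + 1), and all 14479 genes averaging 1 TPM or more were compared by limma 3.58.1 under R 4.3.3, through lmFit and trended eBayes over 3 groups. P-values were two-sided and Benjamini-Hochberg adjusted over all genes tested, and genes were called at 0.1 or less. Fold ratios and differences are on the TPM + 1 scale, which understates those of low genes. The fit was tested on simulated data, and no outcome of that test is given here. Whole reads were recovered for 25273 of 25277 genes above 0 (within 0.02 reads), and limma-voom was run on them as an alternative. They are not independent molecules, so that they cover counting error only. Exon GC content covered 90.4% of genes tested.

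Full values were given for the called members of each comparison, with none called for the 3 of lowest p, and for the 3 highest and 3 lowest in WT, *Pcna* and the MCM ring. Of other lists the 2 largest called differences in each direction were named. Members, lists and rules were chosen with earlier results of these data known. Alternatives were a pseudocount of 0.1 or 5, other filters, scalings and limma settings, blocks, an adjusted p of 0.05 and each library left out. Promoter windows came from RefSeq (GRCm38.p6) and gene positions from GRCm38. Python 3.11.15 with numpy 2.4.6 and pandas 2.3.3 was used.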

Additional observations from a re-analysis of the deposited data

Results flagged for a closer look

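Within each group the library farthest from the others was compared with Dixon's 95% critical value for 4 samples, over 123 sets of 41 genes and 3 groups. Chance gives about 1 in 20, or 6.15 sets, and 7 were found, given here in log2(TPM + 1). Of these 7, 3 were low values of ∆*Firre* mouse 9. *Orc1* was at 3.78 in that library, against 4.28 to 4.37 in the other 3 ∆*Firre* libraries, *Mcm2* at 6.04 against 6.61 to 6.66, and *Mcm7* at 7.87 against 8.16 in each of the others. *Cdt1* was low in *Firre* rescue mouse 2, at 5.85 against 6.64 to 6.77. *Mcm10* was low in WT mouse 11, at 4.50 against 4.72 to 4.76. *Rfc1* was high in WT mouse 10, at 7.02 against 6.88 to 6.90, and *Rrm1* high in *Firre* rescue mouse 3, at 8.49 against 8.27 to 8.30.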

How the results depend on the processing

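No replication gene was called between ∆*Firre* and WT under any alternative run, and leaving out single libraries kept both counts at 0, with the median difference between −0.20 and −0.06. The members whose ∆*Firre* libraries lay wholly below WT numbered 3 in the deposited TPM, 1 under median-ratio scaling, quantile normalization, the GC correction and limma-voom, and 3 to 8 with a library left out. Such a count can only stay or rise when a library is left out. Outside the deposited TPM no share over all genes is given for it. *Mcm5* turned to 0.0077 without ∆*Firre* mouse 9.

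Between *Firre* rescue and ∆*Firre*, 19 were called higher under the GC correction, with and without the replicate block, and 5 to 11 with a library left out, where 0 to 2 were called lower. The median was 0.20 under median-ratio scaling, 0.33 under the GC correction, 0.34 with the block added and −0.0021 to 0.20 with a library left out. Members wholly above ∆*Firre* numbered 13 under median-ratio scaling, 17 under the GC correction, 11 under limma-voom and 7 to 10 with a library left out, and those wholly below 0 to 2. In the deposited TPM 6.31% of all genes tested lay wholly above and 15.6% wholly below. No such share is given for these settings, so that the counts cannot be set against a shift of all genes. A library left out can only keep or raise them. *Mcm4* turned to 0.013 under median-ratio scaling and to 0.24 under the GC correction with and without the block, *Mcm6* to 0.12 in both of the latter.

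Between *Firre* rescue and WT the calls higher and lower were 1 and 1 without a filter, 9 and 0 under median-ratio scaling, 7 and 1 under quantile normalization, 11 and 0 under the GC correction with or without the block, 2 and 1 without the trend and 1 and 0 at an adjusted p of 0.05. The lower calls were 1 with only the 2 groups in the fit and 0 under limma-voom. With a library left out they ranged from 1 to 4 higher and from 0 to 4 lower. The median was 0.16 under median-ratio scaling, 0.11 under quantile normalization, 0.21 under the GC correction, 0.20 with the block added, 0.095 under limma-voom and −0.069 to 0.021 with a library left out. Wholly above WT were 9 under median-ratio scaling, 11 under the GC correction and 5 to 7 with a library left out, and wholly below 0, 0, 1 under limma-voom and 2 to 4. Of all genes tested 3.55% and 14.5% were so in the deposited TPM, and no such share is given for these settings. *Mcm3* turned to 0.13, 0.11, 0.11 and 0.066 and *Mcm7* to 0.16, 0.13, 0.13 and 0.095 under median-ratio scaling, the GC correction, the same with the block and limma-voom. Under the GC correction without and with the block, *Pola1* turned to 0.071 and 0.069 and *Mcm4* to 0.081 and 0.076. The cause of these turns was not tested. Over all 41 genes, 3 comparisons and 22 or 23 alternatives, 2747 values were recomputed, of which 87 lost a call, 60 gained one and 184 turned direction. Between *Firre* rescue and ∆*Firre* 25 calls were lost and 33 gained, by 13 genes, and between *Firre* rescue and WT 62 were lost and 27 gained, by 11 genes.

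Mouse numbers 8 and 11 occur in both WT and ∆*Firre*, but nothing in the labels ties the animals, and the deviations of same-numbered libraries did not correlate (−0.033 and −0.041 over genes tested). With the mouse number as a block (correlation −0.0445) the calls were 10 and 0 against ∆*Firre* and 4 and 3 against WT, and 0 and 0 between ∆*Firre* and WT, so that the block changed no count of calls. With 4 mice a group, 1 library can decide a call, and the *Firre* rescue libraries hold more reads than the others.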
